A study of Rattus rattus with 23 samples.

Results

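Cytochrome c oxidase was examined through 10 of its subunit genes in nasal respiratory epithelium of rats that had inhaled hydrogen sulfide (H2S) or air. The genes were COX1, which is encoded in mitochondrial DNA, and the nuclear genes Cox4i1, Cox5a, Cox5b, Cox6a1, Cox6b1, Cox6c, Cox7a2, Cox7b and Cox8a. They were chosen by the gene symbol of their probe sets. In the whole series, 11249 genes are represented by a probe set that names 1 gene and passed the filter on low signals. Of the 10 genes, 9 had a probe set naming 1 gene, 1 each, and all 9 probe sets passed that filter. The only probe set of Cox7a2 also names Cox7a2l2, and its values are given apart from the others.

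Cytochrome c oxidase, or complex IV, is the last enzyme of the mitochondrial respiratory chain: it takes electrons from cytochrome c, passes them to oxygen and pumps protons across the inner membrane. Its catalytic core is made in the mitochondrion, and nuclear genes supply the surrounding subunits, several of which exist in a ubiquitous form and a heart and muscle form. H2S inhibits the enzyme by binding at the heme and copper centre in the core subunit that COX1 encodes, and the oxidase of the nasal lining is a known target of the inhaled gas in rats. That inhibition acts on the protein, while the arrays measured RNA.

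Each of 23 Affymetrix Rat230_2 arrays held RNA from 1 adult male Sprague-Dawley rat, with no genetic change named, whose epithelium had been laser captured and whose RNA had been amplified in 2 rounds. Rats in the H2S groups breathed 200 ppm through the nose for 3 h on 1 day and their epithelium was taken 3 h after the start in 4 rats, 6 h after it in 3 rats and 24 h after it in 4 rats; another 4 rats breathed the gas on 5 days and were taken at 144 h. The air groups received no H2S, with exposures of 3 h at 0 ppm. They held 4 rats taken at 24 h, exposed on 1 day, and 4 rats taken at 144 h, exposed on 5 days. The labels give an age of 60 days, while the design text gives 10 weeks, and for animals 6 (H2S, 3 h), 14 (H2S, 24 h) and 18 (air, 24 h) the treatment text gives 5 days although the titles place them at 3 h or 24 h. The groups at 3 h and 6 h have no air group of their own time and were set against air at 24 h, so these comparisons differ in time as well as in exposure, and all comparisons against air at 24 h share the same 4 air animals.

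Levels are log2(signal + 16) of the deposited signal, a scale on which a difference of 1 is a doubling of signal plus 16 and on which changes of low signals are understated. Changes are differences of group means from limma fitted to all 19822 probe sets kept, and a probe set was called at a Benjamini-Hochberg adjusted p under 0.05. Arrays of animal 18 (air, 24 h) and animal 22 (air, 144 h) stood apart: their median correlation with the other arrays was 0.43 and 0.74, against 0.86 to 0.92 for the other 21 arrays, and the sum of their spike-in control signals was 115 and 27.0 times that of the median array. Epithelial markers were measured for 7 of 7 genes and had mean relative levels of 2.24 to 3.37 over the groups. Stroma and vessel markers, 5 of 6 measured, stood at 3.44 to 4.24. Levels of different probe sets cannot be set against each other, so these values do not give the share of each tissue. The mean relative level is the mean of the list on the array minus that of all represented genes. RNA integrity numbers, given for 19 arrays, ran from 1.7 to 10. In such tissue samples, fewer cells of a type and less RNA per cell cannot be told apart.

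None of the 9 subunit probe sets passed the test in any of the 8 comparisons. The array as a whole gave few calls: 0.0807% of probe sets at 3 h, 0.00504% at 6 h, 0.0101% at 24 h and 0% at 144 h against air. At an unadjusted p under 0.05, limma gave 0 of the 9 subunits at 3 h, 6 h and 24 h and 1 of 9 at 144 h, beside 1942, 1151, 1603 and 1546 of all 19822 probe sets. The standard error of a change at 24 h had a median of 0.385 over the 9 subunits and of 0.485 over all probe sets. Changes well under a doubling could thus not be separated from the spread between rats. Nor did a change of about that size pass, that of COX1 at 144 h (-1.01, limma adjusted p 0.636). Groups did not overlap for 0 of 9 subunits at 3 h, 1 of 9 at 6 h, 0 of 9 at 24 h and 0 of 9 at 144 h, beside 4.58%, 4.51%, 3.79% and 5.93% of all probe sets. Values below are therefore levels and differences with their errors, and no subunit can be said to have moved or to have stayed level.

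**Figure D1:**
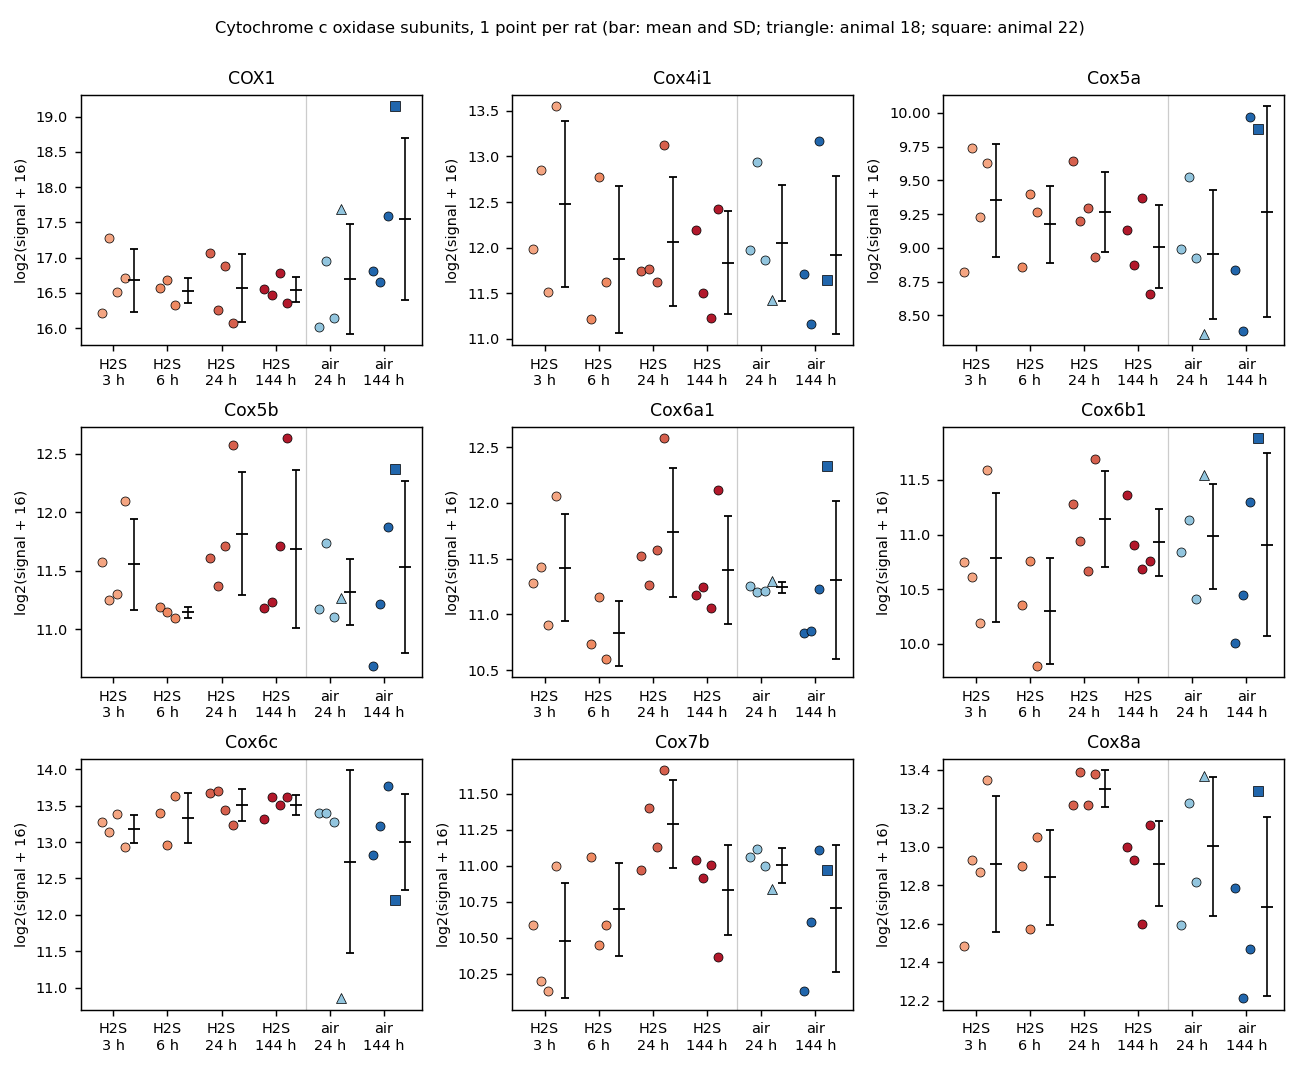
Level of each of the 9 subunit probe sets in every rat, as log2(signal + 16) on the vertical axis, by group on the horizontal axis. Each point is 1 rat, the bar beside the points is the group mean with its SD, the triangle is animal 18 and the square animal 22. COX1 in the air 144 h group reaches 19.15 in animal 22, and Cox6c in the air 24 h group falls to 10.86 in animal 18, while the 9 subunits otherwise overlap between most groups.

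COX1 encodes the largest core subunit, which holds the centre where oxygen is reduced and H2S binds. Its level was 16.22, 17.28, 16.51 and 16.71 at 3 h, 16.57, 16.69 and 16.33 at 6 h, 17.06, 16.26, 16.88 and 16.07 at 24 h, and 16.55, 16.48, 16.78 and 16.36 at 144 h in H2S rats. In air rats it was 16.01, 16.95, 16.14 and 17.69 at 24 h and 16.81, 16.65, 17.58 and 19.15 at 144 h. The H2S groups lay close together, with means of 16.53 to 16.68, and the air rats at 144 h ran higher and spread most.

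At 144 h, COX1 averaged 16.54 ± 0.18 in H2S rats and 17.55 ± 1.15 in air rats (SD, n = 4 each), a difference of -1.01 (SE 0.458, 95% confidence interval -1.96 to -0.06, limma adjusted p 0.636). The highest H2S rat, at 16.78, stood above the lowest air rat, at 16.65, so the groups overlapped. Without animals 18 and 22 the difference was -0.47 (limma adjusted p 0.577), and with quantile normalization between arrays it turned to 0.14. Centring on the array median left it at -0.66.

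COX1 was also the brightest probe set, controls aside, on 18 of 23 arrays and among the first 3 on 22 of them. Its level followed the brightest end of its own array: over the 21 arrays without animals 18 and 22, its correlation with the mean of the 50 brightest other probe sets was 0.93, a measure chosen after the values were seen. The 50 were picked anew on each array, leaving out controls, COX1 and COX2. They averaged 15.42 ± 0.20 in H2S rats at 144 h and 15.90 ± 0.40 in air rats at 144 h (SD, n = 4 each). COX1 stood 1.08 to 1.17 above that mean in H2S rats at 144 h and 1.03 to 2.76 above it in air rats at 144 h, and these ranges overlap. Over the same 21 arrays COX1 had a correlation of 0.74 with the log2 array median (Spearman 0.68). With the stroma and vessel level it was 0.56 (Spearman 0.38), with the muscle marker level 0.61 (Spearman 0.44) and with the epithelial level -0.35 (Spearman -0.34). At 144 h the log2 array median averaged 7.40 in H2S rats and 7.74 in air rats (exact permutation test p 0.057). The part of these in the COX1 difference was not tested. Whether the scanner's upper limit bears on COX1 was not tested, since the deposited values are scaled signals.

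At 24 h, COX1 averaged 16.57 ± 0.48 in H2S rats and 16.70 ± 0.78 in air rats (SD, n = 4 each), a difference of -0.13 (SE 0.458, 95% confidence interval -1.08 to 0.82). The differences at 3 h and 6 h against the same air rats were -0.02 (SE 0.458) and -0.17 (SE 0.495). All 3 values were positive without animals 18 and 22, at 0.31 for 3 h, 0.16 for 6 h and 0.20 for 24 h.

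COX2 encodes the other core subunit with a probe set here, which carries the copper site that receives electrons from cytochrome c, and it followed COX1 closely. Its level was 15.59, 15.62, 15.93 and 15.69 in H2S rats at 144 h, against 15.95, 15.62, 17.03 and 17.66 in air rats at 144 h. The difference at 144 h was -0.86 (SE 0.430, limma adjusted p 0.657), and without animals 18 and 22 it was -0.49. Across arrays the correlation of COX1 with COX2, each level taken minus the array's mean over the represented genes, was 0.96 over 23 arrays and 0.92 over 21, and 0.90 for deviations from group means over 21. Spearman's rho over 21 arrays was 0.85. These values describe arrays that share their scaling. The probe set of COX2 lay between the sixth and the 29th brightest of its array. No probe set naming COX3 alone was analysed here.

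The balance between the mitochondrial core and the nuclear subunits was read within each array as COX1 minus the mean of the 8 nuclear subunit probe sets, which gives a difference that can be followed between rats and not a ratio of molecules. It was 5.00, 5.07, 5.39 and 4.65 in H2S rats at 144 h, against 5.83, 5.64, 5.72 and 7.33 in air rats at 144 h. The groups did not overlap, whether or not animal 22 was counted. Among all probe sets, 5.93% had levels that did not overlap between these groups. That share is of single levels, and none was computed for differences within an array. At 24 h the difference was 5.36, 4.63, 5.30 and 3.92 in H2S rats, against 4.60, 5.17, 4.82 and 6.57 in air rats, with overlap. In the earlier H2S groups it ran from 4.68 to 5.76 at 3 h and from 5.13 to 5.35 at 6 h. The air group at 144 h also had the highest group average of the mean of the 50 brightest other probe sets, and COX1 moved with that mean. Animals 21 and 22 stood at 16.05 and 16.39 in it. Animals 19 and 20 were at 15.53 and 15.62, within the 15.19 to 15.67 of H2S rats at 144 h. The nuclear means of animals 19 and 20 were 10.98 and 11.01, below the 11.39 to 11.71 of those H2S rats. Those of animals 21 and 22 were higher, at 11.86 and 11.82. The part that the bright end of the array has in this difference was not tested.

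**Figure D2:**
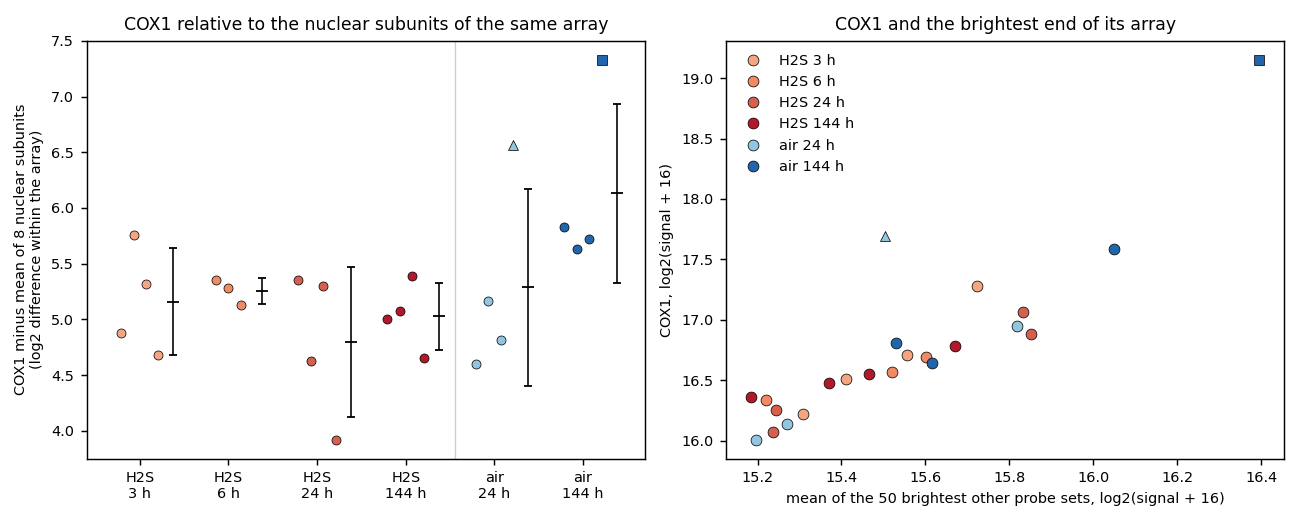
Left, COX1 minus the mean of the 8 nuclear subunits in each rat, as a log2 difference within the array, by group, with the group mean and SD; right, COX1 level against the mean level of the 50 brightest other probe sets of the array, both as log2(signal + 16). Circles are rats, the triangle is animal 18 and the square animal 22. The 4 H2S rats at 144 h lie between 4.65 and 5.39 on the left, below the 4 air rats at 144 h at 5.64 to 7.33, and on the right the 21 arrays without animals 18 and 22 follow a line with a correlation of 0.93.

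Among the nuclear subunits, Cox4i1 encodes subunit IV, the largest of them, where ATP acts on the enzyme. Its level was 11.98, 12.86, 11.51 and 13.55 at 3 h, 11.21, 12.77 and 11.63 at 6 h, 11.74, 11.76, 11.63 and 13.12 at 24 h, and 12.19, 11.50, 11.22 and 12.42 at 144 h in H2S rats, against 11.97, 12.94, 11.86 and 11.43 at 24 h and 11.70, 11.16, 13.17 and 11.64 at 144 h in air rats. Every group but that of H2S at 144 h held at least 1 rat at 12.77 or above, and the spread within groups, 0.76 as a pooled SD, was the widest of the 9 subunits. The change was 0.42 at 3 h (SE 0.517) and 0.01 at 24 h (SE 0.517). Both H2S rats with the highest Cox4i1 levels, animals 6 and 14, are among those whose treatment text disagrees with the title. Without animals 6, 14 and 18 the change was -0.14 at 3 h and -0.55 at 24 h.

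Cox5a and Cox5b encode subunits Va and Vb on the matrix side of the enzyme, and Vb binds zinc. The Cox5a probe set naming 1 gene was the dimmest of the 9, with levels of 8.36 to 9.97, and was the only one not above the median of its array on each array. Its change was 0.40 at 3 h (SE 0.362), 0.31 at 24 h (SE 0.362) and -0.26 at 144 h (SE 0.362). A brighter probe set that names both LOC100361008 and Cox5a ran from 11.44 in animal 18 to 13.89 in animal 16, both air rats at 24 h, and its change was 0.38 at 24 h (SE 0.360). The correlation between the 2 probe sets was 0.32 over 21 arrays, so they did not give the same order of rats.

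Cox5b was 11.19, 11.15 and 11.09 in H2S rats at 6 h, against 11.57, 11.25, 11.30 and 12.09 in H2S rats at 3 h, and these groups did not overlap. At 24 h it was 11.61, 11.37, 11.71 and 12.57 in H2S rats, against 11.17, 11.73, 11.11 and 11.26 in air rats. At 144 h it was 11.18, 11.23, 11.71 and 12.63 in H2S rats, against 10.69, 11.21, 11.87 and 12.37 in air rats. The change at 24 h was 0.50 (SE 0.385, 95% confidence interval -0.30 to 1.29) and at 144 h it was 0.15 (SE 0.385), with overlap in both. The step from 3 h to 6 h was -0.41 (SE 0.416, limma adjusted p 1.0), beside 6.94% of all probe sets without overlap in that step.

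Cox6a1 encodes the ubiquitous form of subunit VIa, which lies where the 2 copies of the enzyme in its dimer meet. Its level was 11.28, 11.42, 10.90 and 12.06 at 3 h, 10.73, 11.16 and 10.59 at 6 h, 11.53, 11.26, 11.58 and 12.58 at 24 h, and 11.17, 11.24, 11.06 and 12.11 at 144 h in H2S rats. In air rats it was 11.25, 11.20, 11.21 and 11.30 at 24 h and 10.83, 10.85, 11.22 and 12.33 at 144 h. The air rats at 24 h were nearly alike, and all 3 H2S rats at 6 h lay below them, with a difference of -0.41 (SE 0.402, limma adjusted p 0.800); of all probe sets, 4.51% had no overlap in that comparison. Against air at 24 h the change was 0.18 at 3 h (SE 0.373) and 0.50 at 24 h (SE 0.373).

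From 6 h to 24 h among H2S rats, Cox6a1 averaged 11.74 ± 0.58 at 24 h (n = 4) and 10.83 ± 0.29 at 6 h (n = 3), both with SD, and the groups did not overlap. The difference was 0.91 (SE 0.402, 95% confidence interval 0.07 to 1.74). It had the smallest p of the 9 subunits in that step, 1 of 9 under an unadjusted 0.05 beside 607 of 19822 probe sets, and its limma adjusted p was 1.0. Without animal 14 the difference was 0.63.

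Cox6b1 and Cox6c encode subunits VIb and VIc, of which VIb faces the intermembrane space near the docking site of cytochrome c. Cox6b1 was 10.35, 10.76 and 9.79 in H2S rats at 6 h, against 10.84, 11.14, 10.41 and 11.55 in air rats at 24 h, a difference of -0.68 (SE 0.437) with overlap. It was 11.28, 10.94, 10.67 and 11.69 in H2S rats at 24 h and 11.36, 10.90, 10.69 and 10.76 in H2S rats at 144 h, and the changes against air of the same time were 0.16 and 0.02 (SE 0.405 each).

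Cox6c had the narrowest range of the 9 subunits over the 21 arrays without animals 18 and 22, 12.83 to 13.77. The arrays also carry a probe set named for a Cox6c pseudogene, so signal of the gene and of a near copy may be mixed. Its level was 13.67, 13.70, 13.44 and 13.24 in H2S rats at 24 h, against 13.40, 13.40, 13.27 and 10.86 in air rats at 24 h. The change at 24 h of 0.78 (SE 0.441, limma adjusted p 0.617), the highest of the 9 subunits there, became 0.15 without animal 18. At 144 h it was 13.32, 13.61, 13.50 and 13.61 in H2S rats, against 12.83, 13.21, 13.77 and 12.20 in air rats, a change of 0.51 (SE 0.441) that became 0.24 without animal 22. The changes of 0.45 at 3 h and 0.60 at 6 h became -0.17 and -0.03 without animal 18. The single array of animal 18 thus carried most of the difference of Cox6c against air at 24 h.

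Cox7b and Cox8a encode small subunits that each cross the membrane once. Cox7b was 10.59, 10.20, 10.13 and 11.003 in H2S rats at 3 h, against 11.07, 11.12, 10.999 and 10.84 in air rats at 24 h. The change was -0.52 (SE 0.298, 95% confidence interval -1.14 to 0.10, limma adjusted p 0.555), the lowest change of the 9 subunits at 3 h, and animal 6 was the 1 H2S rat within the range of the air rats. Without animals 18 and 22 it was -0.58, and over all settings and animals left out it ran from -0.79 to -0.34. At 24 h Cox7b was 10.97, 11.40, 11.13 and 11.66 in H2S rats, a change of 0.29 (SE 0.298).

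Cox8a had the smallest spread within groups, a pooled SD of 0.32. It was 13.22, 13.39, 13.22 and 13.38 in H2S rats at 24 h, against 12.59, 13.23, 12.82 and 13.37 in air rats at 24 h, a change of 0.30 (SE 0.291, 95% confidence interval -0.30 to 0.90) with overlap. At 144 h it was 12.999, 12.93, 12.60 and 13.12 in H2S rats, against 12.79, 12.21, 12.47 and 13.29 in air rats, a change of 0.22 (SE 0.291). All 4 H2S rats at 24 h lay above the 3 H2S rats at 6 h, which were at 12.90, 12.57 and 13.05, with a difference of 0.46 (SE 0.315).

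The probe set that names Cox7a2l2 and Cox7a2 covers the ubiquitous form of subunit VIIa. It ran from 11.25 in animal 18 to 12.63 in animal 21 over the 23 arrays. Its change was 0.07 at 3 h, 0.19 at 6 h, 0.35 at 24 h and -0.24 at 144 h (SE 0.303 to 0.327), and none of these passed the test.

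**Figure D3:**
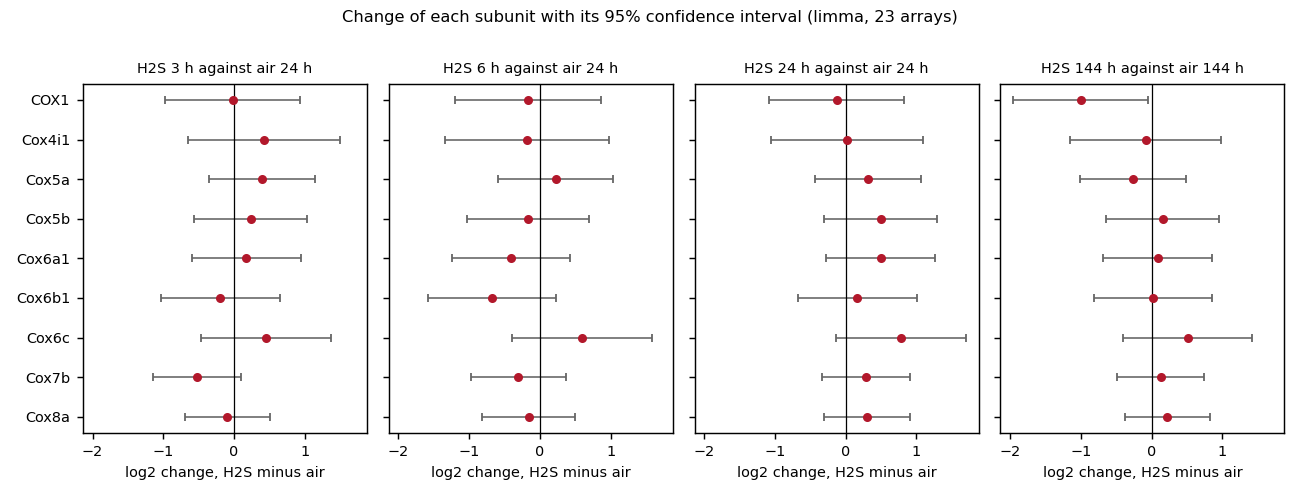
Change of each of the 9 subunits in H2S rats minus air rats on the log2 scale (horizontal axis), with its 95% confidence interval from limma, for 3 h, 6 h and 24 h against air at 24 h and for 144 h against air at 144 h. Each interval spans 0 except that of COX1 at 144 h, -1.96 to -0.06, which did not pass after adjustment.

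Taken as a list, the 9 probe sets had a median change of 0.18 at 3 h with 5 positive, -0.17 at 6 h with 2 positive, and 0.30 at 24 h with 8 positive, each against air at 24 h, and of 0.09 at 144 h with 6 positive. All 19822 probe sets had medians of 0.09, 0.08, 0.07 and -0.02 in the same comparisons. Centring each array on its median put the medians of the 9 subunits at 0.36, 0.08, 0.57 and 0.43 and those of all probe sets at 0.27, 0.34, 0.34 and 0.32, so the subunits lay below the whole at 6 h and above it at 24 h under both scalings. With quantile normalization the subunit medians were -0.01, -0.43, 0.21 and 0.03, and those of all probe sets were 0.14, 0.16, 0.16 and 0.08, which also placed the subunits below the whole at 3 h and 144 h. Single rats also turned the sign: at 3 h the median was -0.03 without animal 6, and at 144 h it was -0.13 with 2 positive without animal 19, -0.07 with 4 positive without animal 20 and -0.14 with 4 positive without animal 26. These are descriptions of a list, and the first 3 comparisons rest on the same 4 air rats.

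The exposure effect at 144 h minus that at 24 h was negative for 9 of 9 subunits, from -0.88 for COX1 (SE 0.648) to -0.08 for Cox8a (SE 0.412), beside a median of -0.09 over all probe sets. None passed, with a smallest limma adjusted p of 0.946, and 0 of 9 reached an unadjusted p under 0.05 beside 929 of all probe sets. In this contrast 0% of probe sets were called. Of 56 nuclear genes of the other respiratory complexes, 46 were negative in it, with a median of -0.39, beside -0.27 for the 9 subunits. Without animals 18 and 22, 3 of the 9 values were positive and the median was -0.02, while adding RNA integrity as a covariate gave 4 positive values, against 1 on the same arrays without it. Between air rats of 144 h and 24 h, in which 0% of probe sets were called, the 9 subunits ran from -0.31 for Cox8a (SE 0.291) to 0.85 for COX1 (SE 0.458), with 5 positive. Their groups did not overlap for 0 of 9 subunits, beside 2.09% of all probe sets.

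Among H2S rats, the step from 3 h to 6 h was negative for 7 of 9 subunits, with a median of -0.18, and the step from 6 h to 24 h was positive for 9 of 9, with a median of 0.46 (7 of 9 without animal 8 or without animal 11, the fewest over all settings), beside medians of -0.01 over all probe sets in both steps. Calls over the whole array stood at 0.00504% and 0.0101%, and none was a subunit. In the later step, Cox6a1, Cox5b and Cox8a did not overlap between the groups, 3 of 9, where 6.53% of all probe sets did not overlap. The brighter probe set naming Cox5a with LOC100361008 did not overlap either, at 0.33 (SE 0.389). The differences for Cox6b1 and Cox7b were 0.84 (SE 0.437) and 0.59 (SE 0.322), with overlap, and those for COX1 and Cox5a were 0.04 and 0.09. These steps compare 3 rats at 6 h with 4 rats at each other time.

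Several marker lists differed in mean between the H2S rats of 24 h and 6 h. Ciliated markers, 10 of 15 measured, had a mean relative level of 0.73 in H2S rats at 24 h and -0.28 in H2S rats at 6 h, with summed signals of 5122 to 24819 at 24 h and 4048 to 8718 at 6 h. Secretory markers, 7 of 7 measured, had 1.84 in H2S rats at 24 h and 0.07 in H2S rats at 6 h, with summed signals of 54441 to 106356 at 24 h and 34369 to 88641 at 6 h. The relative levels of both lists overlapped between these groups. Olfactory markers, 7 of 8 measured, did not overlap, with relative levels of -0.90 to -0.27 and summed signals of 7232 to 15235 in H2S rats at 24 h, against -1.57 to -1.06 and 4580 to 5309 in H2S rats at 6 h. Blood markers, 2 of 4 measured, did not overlap either and ran the other way, with -1.81 to -1.21 and summed signals of 402 to 580 in H2S rats at 24 h, against -0.85 to -0.40 and 1021 to 1425 in H2S rats at 6 h. No marker of these lists was at 0. Among the olfactory genes, Cyp2a3 alone did not overlap, with levels of 12.38 to 13.65 in H2S rats at 24 h and 11.44 to 11.80 at 6 h. Omp, Gnal, Cnga2, Adcy3, Gap43 and Tubb3 each overlapped between these groups, so the gap in the olfactory list was not shared by its genes. Across 21 arrays the mean of the 8 nuclear subunits, relative to all genes, had a correlation of 0.59 with the secretory level (Spearman 0.67) and of 0.48 with the ciliated level (Spearman 0.51). With the olfactory level it was 0.31 (Spearman 0.24) and with the blood level -0.32 (Spearman -0.38). With the RNA integrity number over 17 arrays it was 0.06 (Spearman -0.42). Cox6b1 had a correlation of 0.73 with the secretory level. The part of cell composition and RNA quality in the differences between times was not tested.

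The nuclear subunits varied together to different degrees. Of their 28 pairs, 25 had a correlation above 0 over 21 arrays, with a median of 0.33 and a range of -0.34 to 0.83, on levels minus the array's mean over the represented genes. The highest were Cox5b with Cox6a1 at 0.83 (Spearman 0.57), Cox6a1 with Cox6b1 at 0.69 (Spearman 0.63) and Cox4i1 with Cox6b1 at 0.62 (Spearman 0.61). The lowest was Cox4i1 with Cox6c at -0.34. The dim Cox5a probe set had 0.64 with COX1 and 0.66 with COX2, while the brighter one naming LOC100361008 and Cox5a had 0.23 and 0.14, so the likeness to the mitochondrial genes was not shared by both probe sets. Cox6c with COX1 was at -0.66 over 23 arrays and at -0.02 over 21, so that value came from animals 18 and 22. The arrays share scaling and RNA quality, and the values are descriptions.

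**Figure D4:**
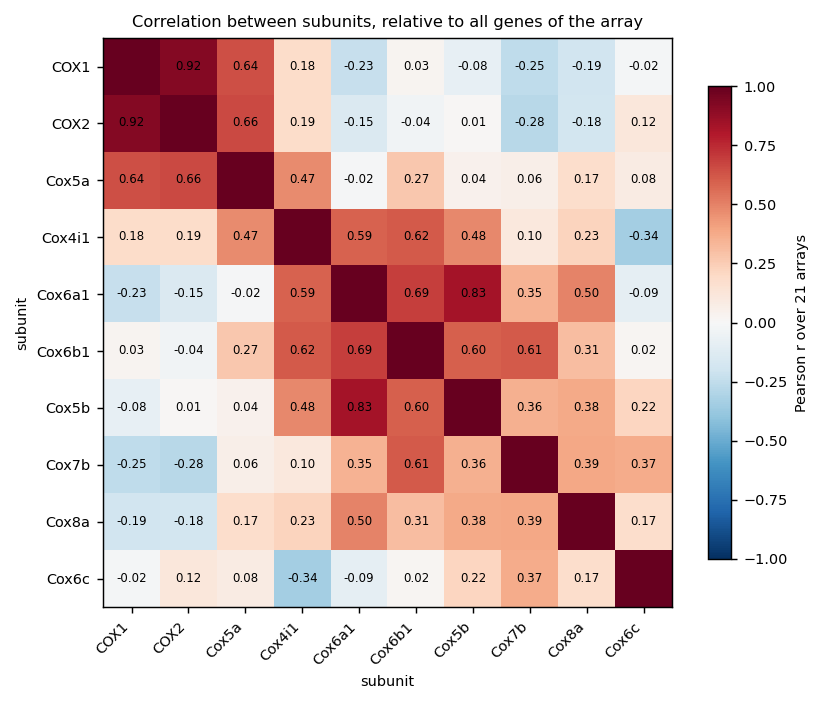
Pearson correlation between the 9 subunit probe sets and COX2 over 21 arrays, without animals 18 and 22, on log2 levels minus the array's mean over the represented genes; both axes list the subunits and the colour gives r. COX1 and COX2 stand at 0.92, and Cox5b with Cox6a1 at 0.83, while COX1 has values between -0.25 and 0.18 with the nuclear subunits other than Cox5a.

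Genes outside the list with the most similar pattern were ranked over 11240 genes. With COX1 these were COX2 at 0.96, then Bpifa1, a secreted airway protein, at 0.91, Ctnnb1, the beta-catenin gene, at 0.91, Col1a2, a collagen chain, at 0.89, and Mvb12a at 0.88, over 23 arrays. Without animals 18 and 22 the first 2 were Ctnnb1 at 0.95 and COX2 at 0.92. For the nuclear subunits, the pattern was the mean of their levels after each was standardized over the arrays. Most similar to it over 23 arrays were Atp5po and Atp5pd, both subunits of ATP synthase, at 0.83 and 0.81, and Uqcr11 of complex III at 0.83. Pebp1 stood at 0.81 and Naprt, an enzyme of NAD synthesis, at 0.79. Over 21 arrays Ndufb2 of complex I led at 0.88, followed by Atp5po at 0.86 and Uqcr11 at 0.83.

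Of the other subunits of the complex, 11 had a probe set naming 1 gene and 8 passed the filter. None passed the test in any comparison, with a smallest limma adjusted p of 0.612 over the 4 comparisons of H2S with air. Cox7c, a ubiquitous small subunit, was 13.82, 13.57, 13.86 and 13.62 in H2S rats at 24 h, against 13.58, 13.44, 13.48 and 11.36 in air rats at 24 h. Its change of 0.75 (SE 0.396) became 0.21 without animals 18 and 22. Ndufa4, now counted as a subunit of this complex, was 11.30, 11.66, 11.48 and 12.06 in H2S rats at 144 h, against 10.38, 11.38, 11.38 and 10.60 in air rats at 144 h, a change of 0.69 (SE 0.298, limma adjusted p 0.624) with overlap.

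The muscle forms Cox6a2 and Cox8b were low on most arrays and highest in animal 21 (air, 144 h), with animal 18 (air, 24 h) second in both at 9.79 and 9.31. Cox6a2 was 5.08, 6.60, 6.17 and 6.12 in H2S rats at 144 h, against 6.48, 6.13, 11.67 and 8.39 in air rats at 144 h. Cox8b was 4.78, 4.32, 4.53 and 5.27 in H2S rats at 144 h, against 6.65, 4.34, 11.69 and 7.68 in air rats at 144 h. In animal 21 Myh4, a fast muscle myosin, stood at 14.71 and Acta1, skeletal muscle actin, at 14.04. Of the 5 muscle markers, 5 were measured and none was at 0; their summed signal ran from 191 to 616 in H2S rats at 144 h and from 219 to 84106 in air rats at 144 h, the top value being that of animal 21, while animal 18 had a sum of 1275. The change of Cox6a2 at 144 h was -2.18 (SE 1.04, limma adjusted p 0.639) and became -1.01 without animal 21.

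Animal 21 was also high for the ubiquitous subunits Cox4i1 at 13.17, Cox5a at 9.97 and Cox6c at 13.77. Without it the changes at 144 h were 0.33 for Cox4i1, -0.03 for Cox5a and 0.77 for Cox6c. In animal 19, another air rat at 144 h, Cox5b and Cox7b were at their lowest of all 23 arrays, 10.69 and 10.13, and cartilage and bone markers, 4 of 5 measured, stood at a relative level of 3.06 against -1.79 to 1.52 on the other arrays. The part of muscle or cartilage RNA in the air group at 144 h was not tested.

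**Figure D5:**
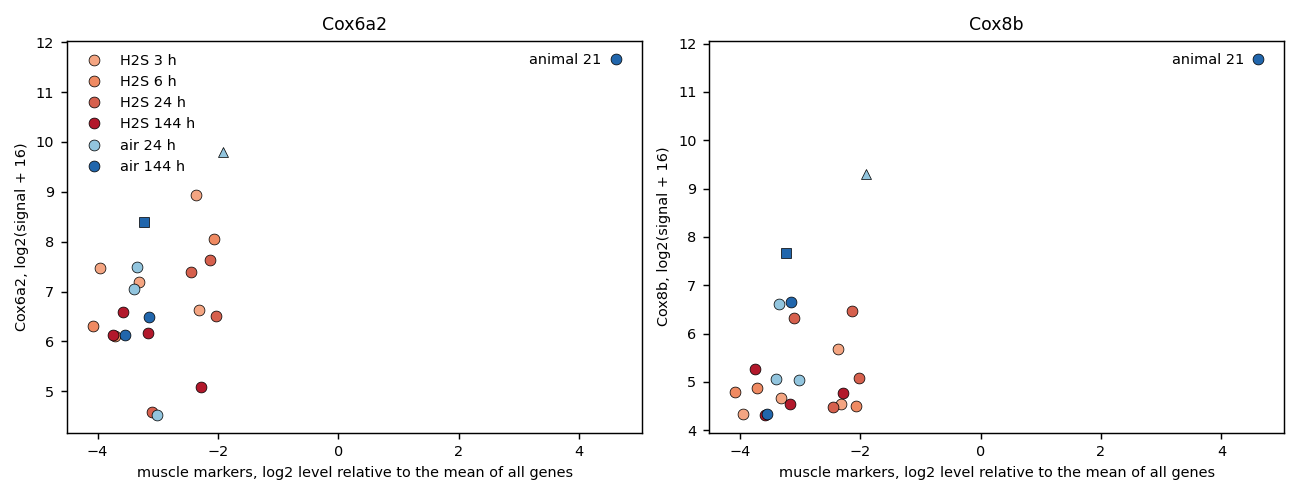
Level of the muscle forms Cox6a2 (left) and Cox8b (right), as log2(signal + 16), against the mean level of 5 muscle markers relative to all genes of the array, 1 point per rat; the triangle is animal 18 and the square animal 22. Animal 21, an air rat at 144 h, lies alone at a muscle level of 4.61 with Cox6a2 at 11.67 and Cox8b at 11.69.

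Assembly of the enzyme needs factors that insert copper and heme and join the subunits, and of 28 listed 21 were tested. None passed in any comparison. At 24 h, 12 of 21 had positive changes, and those with the smallest p were Cmc2, a small copper-binding protein of the intermembrane space, at 1.44 (SE 0.418, limma adjusted p 0.474), and Coa3, which assists the synthesis of the COX1 protein, at 1.14 (SE 0.514, limma adjusted p 0.612). Without animals 18 and 22 they were 0.97 and 0.33. At 3 h Cox17, the copper carrier for the enzyme, was at 0.98 (SE 0.637) and became -0.12 without those animals. At 144 h Surf1, a factor in heme insertion, was at -0.57 (SE 0.273, limma adjusted p 0.639).

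For the other respiratory complexes, 56 of 63 listed nuclear genes were tested, and none passed. Their median change was -0.02 at 3 h, -0.06 at 6 h, 0.35 at 24 h and -0.01 at 144 h against air, and in the step from 6 h to 24 h among H2S rats 54 of 56 were positive with a median of 0.42, beside 0.46 for the 9 oxidase subunits. The smallest p at 24 h against air were those of Ndufa12 of complex I at 0.68 (SE 0.257) and Cyc1, the cytochrome of complex III, at 0.76 (SE 0.344). The 11 listed regulators of mitochondrial gene expression were all tested, and none passed: 6 of 11 were positive at 24 h and 6 of 11 at 144 h. At 144 h Pprc1, a coactivator of nuclear genes for mitochondria, was at 0.77 (SE 0.359) in H2S rats against air rats.

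Sulfide is removed in mitochondria by an oxidation pathway that feeds electrons into the same chain, and 5 of 8 listed enzymes of sulfide handling were tested. None passed. Sqor, the quinone reductase that takes the first step, was at 1.24 at 3 h (SE 0.485), 0.96 at 6 h (SE 0.524), 1.46 at 24 h (SE 0.485, limma adjusted p 0.575) and 0.60 at 144 h (SE 0.485). Without animals 18 and 22 these values were 0.53, 0.25, 0.75 and 0.62. Tst, a sulfur transferase, averaged 11.10 in H2S rats at 24 h and 9.57 in H2S rats at 6 h, a difference of 1.53 (SE 0.519, limma adjusted p 1.0).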

How the data were processed

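RNA of laser-captured nasal respiratory epithelium was measured on 23 Affymetrix Rat230_2 arrays, 1 per rat. Per the labels' protocols, extraction used a PicoPure kit and amplification 2 rounds of RiboAmp OA before labelling. The deposited values are intensity, the linear signal of each probe set. The submitters' processing notes name GCOS 1.0 without its settings. With 2% trimmed at both ends, the mean signal was 500.1 to 500.2 on all arrays and the array median 136 to 341, from which a scaling per array was inferred. The number of arrays limits the precision.

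Values were taken as log2(signal + 16). Of 31099 probe sets, 57 controls were left out and 19822 were kept because they exceeded the array's median signal on 3 or more arrays. Gene symbols came from the platform annotation, in which 20832 probe sets had 1 symbol, 436 several and 9831 none. Genes other than the 9 subunits were represented by 1 probe set, the kept one that names a single gene and has the highest mean level. No genome position or sequence was used here.

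Groups came from the sample titles. All 23 arrays were fitted with limma 3.58.1 in R 4.3.3 (1 mean per group, two-sided, defaults), with Benjamini-Hochberg adjustment across all 19822; the procedure was tested on simulated data. The 8 comparisons set each early H2S group against the 24 h air group, both 144 h groups against each other, the air groups against each other, the late exposure effect against that of 24 h, and each H2S group of 6 h and 24 h against the H2S group before it. Animals are not paired by the labels. Correlations used levels minus the mean of all 11249 represented genes of the array, in Python 3.11.15 with SciPy 1.17.1. Each subunit was named in every comparison; from each other list, up to 4 genes past the threshold or up to 2 with the smallest p were named, and the 5 genes most correlated with COX1 and with the nuclear subunits. Subunits and lists were chosen with earlier results of these data known.

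Alternatives were pseudocounts of 1 and 64, quantile normalization, centring on the array median, a filter at the 75th percentile in place of the median or none, array weights, RNA integrity as a covariate and the same arrays without it, a fit to the compared groups alone, and omission of animals 18 and 22, of animals 6, 14 and 18, and of each animal in turn.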

Additional observations from a re-analysis of the deposited data

Results flagged for a closer look

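Levels of single rats were set against the rest of their group of 4 and are named where the gap to the nearest rat exceeded Dixon's 95% critical value. Chance gives about 1 such value in 20 groups; 45 groups were examined for the levels of the 9 subunits and gave 2, which is near that rate. Cox4i1 was highest in animal 14 (H2S, 24 h) at 13.12, against 11.63 to 11.76 in the other 3 rats of its group. Cox6c was lowest in animal 18 (air, 24 h) at 10.86, against 13.27 to 13.40 in the other 3. Outside those 45 groups, COX1 minus the mean of the nuclear subunits was highest in animal 22 (air, 144 h) at 7.33, against 5.64 to 5.83 in the other 3.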

How the results depend on the processing

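The number of subunits past the threshold was 0 in each of the 8 comparisons, and it was 0 in all 165 counts made with other settings or with an animal left out. No paired analysis was possible because the labels number the animals without shared numbers between groups. Of 1485 changes computed for single subunits in other settings, 34 moved by at least the standard error of the change as first fitted. Of these, 15 were values of Cox6c, in settings that leave out animal 18 or weight the arrays, and 8 were values of COX1, in settings without animals 18 or 22 or with quantile normalization, under which its difference at 144 h between H2S and air rats was 0.14 in place of -1.01; the cause was not tested. Over all settings the COX1 difference at 144 h ran from -1.31 to 0.14, with a smallest limma adjusted p of 0.370. The 12 settings did not remove the main limits: 3 or 4 rats per group, amplified RNA of uneven integrity, no air group at 3 h or 6 h, and brightness near the top of the array for COX1. Log2 values with a pseudocount understate low signals, here the dim Cox5a probe set and the muscle forms.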
